A study of Mus musculus with 4 samples.

Results

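F13a1-high monocytes are a group of myeloid cells with monocyte transcripts, found among the leukocytes of mouse brains that carried EO771 tumours. They were chosen by transcript counts in the 2 immune libraries. A barcode was kept with at least 300 detected genes and at most 15% mitochondrial counts. A member had at least 5 unique molecular identifiers (UMIs, the count of distinct captured transcripts) of F13a1, at least 1 of Chil3 and at most 1 of Pf4. It also had fewer than 3 of the microglia genes Tmem119, P2ry12, Sall1, Gpr34 and Fcrls and fewer than 3 UMIs summed over Cd3d, Cd3e, Cd3g, Cd79a, Ms4a1 and Ncr1. In all 1455 of 13412 kept immune barcodes met the rule, out of 30856 barcodes deposited over 4 libraries.

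The mice were female C57BL/6 animals with intracranial tumours of EO771-GFP, a mouse mammary carcinoma line that carries green fluorescent protein. They received vehicle or SCDi, an inhibitor of stearoyl-CoA desaturase, for 14 days. Neither the compound nor its dose is stated in the labels used. For each treatment 3 mice were pooled and sorted into live CD45+ GFP- immune cells and a tumour fraction, and each sort gave 1 library, so the groups were vehicle immune, SCDi immune, vehicle tumour and SCDi tumour. There was 1 library per treatment and sort, hence no replicate, no test between treatments and no SD: intervals given here cover counting error only, and any difference between the pools of mice cannot be told apart from the treatment.

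Classical monocytes leave the bone marrow through the chemokine receptor CCR2 and carry high surface Ly6C. In inflamed tissue and in tumours they lose Ly6C over time and take on macrophage or antigen-presenting features. F13a1 encodes the A subunit of coagulation factor XIII, the transglutaminase that crosslinks fibrin, and is expressed by monocytes and also by macrophages at the borders of the brain, whose marker Pf4 was capped by the rule. Chil3 encodes the chitinase-like protein Ym1, a product of Ly6C-high monocytes and other myeloid cells. Stearoyl-CoA desaturases put the first double bond into saturated fatty acids.

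On mm10, F13a1 (ENSMUSG00000039109) lies on the minus strand of chromosome 13 from 36867178 to 37050244. Chil3 (ENSMUSG00000040809) lies on chromosome 3 from 106147554 to 106167564. The further genes that name the group are Fn1 (ENSMUSG00000026193, fibronectin) on chromosome 1 from 71585520 to 71653200, Hp (ENSMUSG00000031722, haptoglobin, which binds free haemoglobin) on chromosome 8 from 109575128 to 109579172, and Cd177 (ENSMUSG00000052212, a surface glycoprotein best known from neutrophils) on chromosome 7 from 24743983 to 24760311. All 5 are protein-coding genes on the minus strand.

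Members had a median of 16671 UMIs per cell in the vehicle library and 16106 in the SCDi library, with ranges of 2192 to 65184 and 3646 to 103813. Kept immune barcodes had medians of 15737 and 17023. Members held a median of 3773 and 3639.5 detected genes and 2.02% and 2.30% mitochondrial UMIs. The 2 immune libraries shared 14 barcode sequences, and 1 of these was a member in both. Among members, 7.89% of vehicle and 6.46% of SCDi barcodes were in the highest doublet scores, against 5.56% and 5.16% of kept immune barcodes. Summed over members, the levels below are UMIs of a gene per 1000000 UMIs of the group (CPM). They count 3' ends and are compared between groups for 1 gene, never between genes.

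F13a1-high monocytes made up 10.0% of the kept immune barcodes of the vehicle library (697 of 6959, exact 95% interval 9.32% to 10.7%) and 11.7% of the SCDi library (758 of 6453, 11% to 12.6%). The difference was 1.73 percentage points (0.676 to 2.79). The rule found 0 members in either tumour library, which allows shares of up to 0.0403% and 0.0337%. The sort sets what can enter these shares. When every barcode was thinned to 5000 UMIs before the rule was applied, the shares were 3.41% (213 of 6238) and 3.96% (237 of 5989), and the difference of 0.543 points (-0.126 to 1.22) spanned 0. The ratio of the shares was 1.17 before and 1.16 after thinning, which left fewer members in both libraries. Among barcodes with 10000 to 30000 UMIs the shares were 13% and 15.5%, a difference of 2.49 points.

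The minimum of F13a1 was the step that removed most barcodes. In the vehicle library 1285 of 6959 kept barcodes had at least 5 UMIs of F13a1, and 986 of these also had a UMI of Chil3. The limit on Pf4 left 800 of them, the limit on microglia genes 760 and the limit on lymphoid genes 697. In the SCDi library the same order of steps gave 1155, 976, 838, 801 and 758. Of the barcodes with enough F13a1, the vehicle library thus lost more to the Chil3 and Pf4 steps than the SCDi library did.

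F13a1 ran from 5 to 117 UMIs per member in the vehicle library (median 11) and from 5 to 127 in the SCDi library (median 11). Its summed level was 763 and 755 CPM. Chil3 had a median of 48 and 49 UMIs per member, with highest values of 521 and 325, and summed levels of 3495 and 3162 CPM. Both genes chose the members, so these levels only describe them, and the SCDi and vehicle members had nearly the same amount of each per cell.

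Fn1, Hp and Cd177 are part of the name, although the rule did not use them. The name was chosen with earlier results of these data known, so their levels describe the members and do not test it. Fn1 stood at 615 CPM in vehicle and 608 CPM in SCDi members, with a median of 8 UMIs per cell in both and 0 UMIs in 105 and 125 cells. Hp stood at 646 and 669 CPM, with medians of 11 and 12 UMIs per cell. Cd177 stood at 69.9 and 75.8 CPM, with a median of 1 UMI per cell in both. Each gene was thus present in most but not all members. On cells thinned to 5000 UMIs, 71.3% of vehicle members (67.8% to 74.7%) and 71.6% of SCDi members (68.3% to 74.8%) had a UMI of Fn1. In a T cell gate, barcodes with at least 5 UMIs of the CD3 chains Cd3d, Cd3e and Cd3g, the share with Fn1 was 10.4% and 8.13%. That gate held 618 and 411 barcodes with median depths of 27204 and 30242 UMIs and serves as the background of free or mixed RNA. Thinning left out 7 vehicle and 4 SCDi members, 15 and 5 T cell barcodes. Thinned shares for Hp were 77.5% and 80.9% of members against 10.4% and 11.6% of the T cell gate, and for Cd177 30.3% and 30.4% against 1.99% and 2.46%. Without thinning, 84.9% and 83.5% of members had Fn1, 88.5% and 91.6% Hp and 55.2% and 55.7% Cd177.

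**Figure D1:**
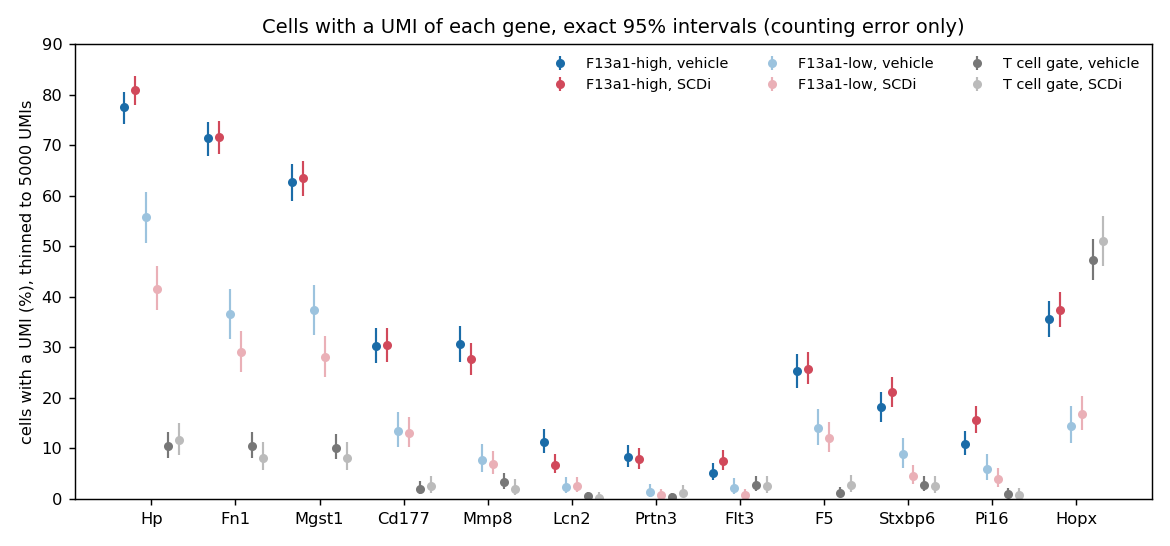
Share of cells (percent, y axis) with at least 1 UMI of each of 12 genes (x axis) after thinning every cell to 5000 UMIs, for F13a1-high members, F13a1-low monocytes and the T cell gate in both libraries, with exact 95% intervals as error bars. Fn1, Hp and Cd177 were found in a larger share of members than of either other group, with Fn1 in 71.3% of vehicle members, 36.5% of vehicle F13a1-low monocytes and 10.4% of the vehicle T cell gate.

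Members carried the other classical monocyte genes as well. Ly6c2, the Ly6C antigen gene, stood at 1302 CPM in vehicle and 1756 CPM in SCDi members and was at 0 in only 16 and 14 cells. Ccr2, the chemokine receptor of marrow egress, stood at 918 and 792 CPM and was at 0 in 18 and 25 cells. Plac8, a gene high in blood monocytes, stood at 2684 and 2724 CPM. Monocyte markers were thus present in nearly every member. How recently a cell had entered the brain was not measured, so the cells are called F13a1-high monocytes here.

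Macrophage transcripts were also present. Apoe, an apolipoprotein of macrophages, stood at 4553 and 3969 CPM in members and at 3421 and 3675 CPM in the T cell gate. C1qa, a complement subunit of resident and mature macrophages, stood at 408 and 482 CPM in members and at 1260 and 1630 CPM in that gate. The levels of C1qa in members were thus below those in cells that should lack it. Of the neutrophil markers, Ly6g had 0 UMIs in 697 vehicle members, which allows a share of cells with a UMI of up to 0.430% (3 cells of 697) and sets no limit on cells that express it, and 10 UMIs in 3 SCDi members, 8 of them in 1 barcode. Mpo and Elane, granule enzymes of marrow progenitors, stood at or below 0.2 CPM in members of both libraries. Transcripts of dividing cells, Mki67 or Top2a, were found in 9.18% of vehicle and 11% of SCDi members, and in 3.19% and 4.11% after thinning.

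The summed level of the 25-gene macrophage list was 13615.7 CPM in vehicle and 13136.8 CPM in SCDi members. It was 9998.23 and 12864 CPM in F13a1-low monocytes (Vcan-positive cells with little F13a1) and 13870.6 and 15460.6 CPM in the T cell gate. The part of mixed or free RNA in the macrophage genes of members was not tested.

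To see what set these monocytes apart, they were compared with F13a1-low monocytes of the same library, barcodes that met the same limits on Pf4, microglia and lymphoid genes but had at least 3 UMIs of Vcan (versican, a proteoglycan of classical monocytes) and at most 1 of F13a1. This gate held 400 vehicle and 519 SCDi barcodes, 5.75% (5.21% to 6.32%) and 8.04% (7.39% to 8.73%) of the kept immune barcodes, with median depths of 14653.5 and 15626 UMIs. Of the cells in both gates, 63.5% (60.6% to 66.4%) were F13a1-high in the vehicle and 59.4% (56.6% to 62.1%) in the SCDi library, a difference of -4.18 points (-8.08 to -0.249). This difference did not hold with gates on thinned cells. The SCDi to vehicle ratios of the shares were 1.17 for F13a1-high and 1.40 for F13a1-low monocytes, but 1.16 and 1.12 after thinning. The thinned F13a1-low shares were 8.32% and 9.32%, a difference of 0.997 points (-0.00812 to 2.01). The gates differed in F13a1, in Chil3, which only members had to hold, and in Vcan, which only F13a1-low monocytes had to hold. Chil3 was at 0 in 104 vehicle and 130 SCDi F13a1-low monocytes, and Vcan was at 0 in 96 and 90 members. The values that follow therefore describe the gates, carry no test and cannot be credited to F13a1 alone. A gene counted as past the fold when it differed at least 1.5-fold with at least 20 CPM in either group, and the genes of the gates were left out.

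Members had 333 of 5772 genes past the fold against F13a1-low monocytes in the vehicle library (5.77%), with 185 higher (3.21%) and 148 lower (2.56%). In the SCDi library 451 of 5759 genes were past it (7.83%), with 238 higher (4.13%) and 213 lower (3.70%). Of 5576 genes measured in both libraries, 101 were higher in both (1.81%) and 93 lower in both (1.67%).

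**Figure D2:**
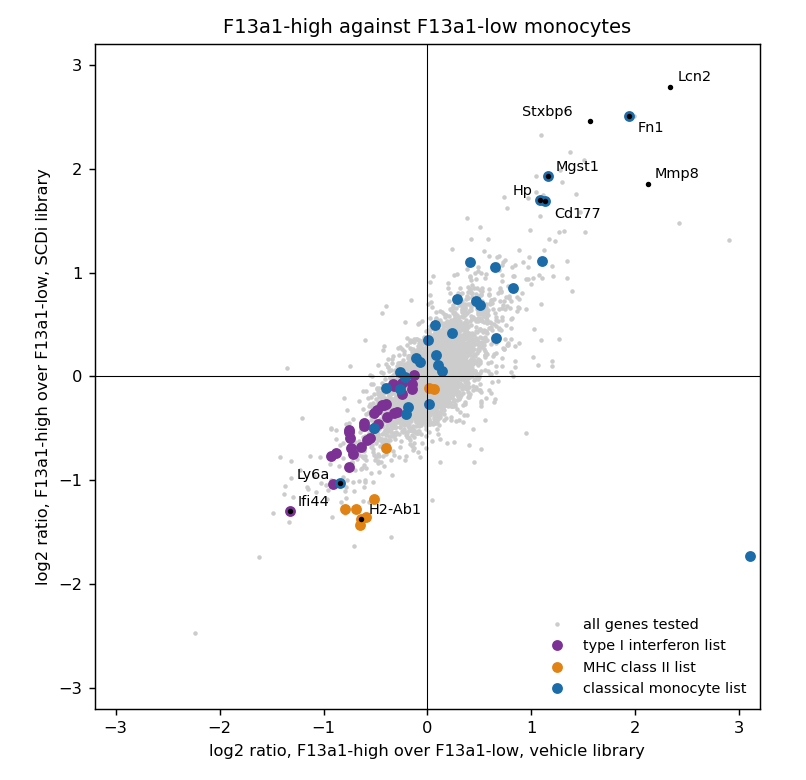
Log2 ratio of F13a1-high over F13a1-low monocytes in the vehicle library (x axis) and in the SCDi library (y axis), 1 grey point per gene with at least 20 CPM, with the type I interferon, MHC class II and classical monocyte lists in colour. Fn1, Hp, Cd177, Mmp8 and Stxbp6 lie in the upper right and Ifi44, Ly6a and H2-Ab1 in the lower left, and 5 genes lie outside the axes, which end at 3.2.

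The label genes were among the higher ones. Fn1 was at 615 against 160 CPM in the vehicle library and 608 against 107 CPM in the SCDi library, log2 ratios of 1.94 (1.85 to 2.03) and 2.51 (2.41 to 2.60). Hp was at 646 against 305 and 669 against 206 CPM, ratios of 1.08 and 1.70. Cd177 was at 69.9 against 31.8 and 75.8 against 23.6 CPM, ratios of 1.13 and 1.68. After thinning, 36.5% and 29.0% of F13a1-low monocytes had a UMI of Fn1, 55.7% and 41.6% had Hp, and 13.5% and 13% had Cd177, so the F13a1-low cells held these transcripts too, in fewer cells.

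**Figure D3:**
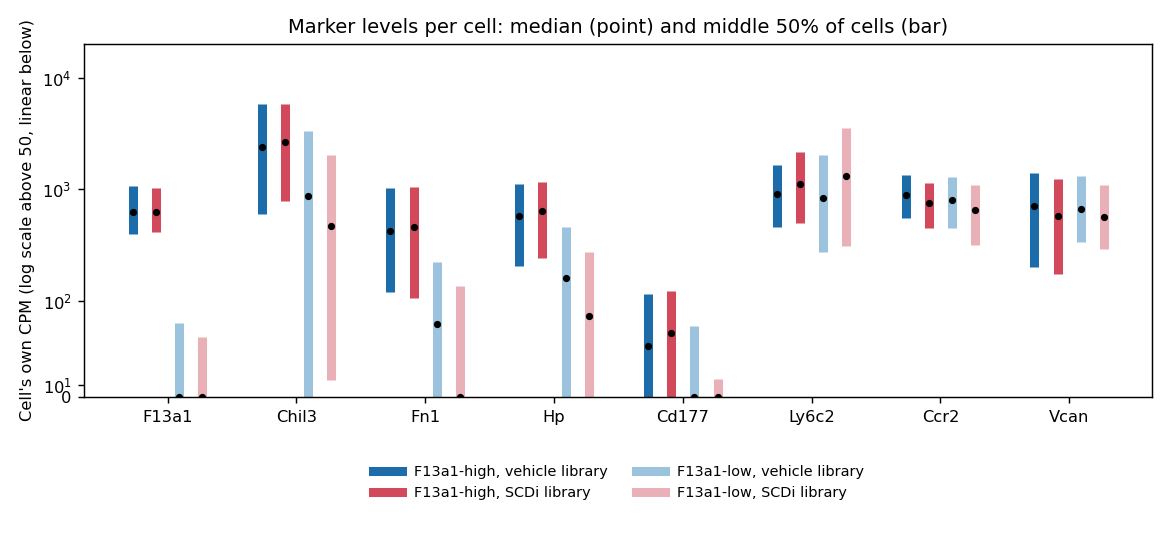
Level of each gene in single cells (the cell's own CPM, y axis, linear below 50 CPM and log above) in F13a1-high and F13a1-low monocytes of the vehicle and SCDi libraries, with the median as a point and the middle 50% of cells as a bar. The medians of Fn1, Hp and Cd177 are higher in members than in F13a1-low monocytes of the same library. For Fn1 they are 421 against 62.9 CPM in the vehicle library. The medians of Ccr2 are closer, at 886 against 800 CPM in the vehicle and 750 against 657 CPM in the SCDi library. The bars of Fn1, Hp, Cd177, Ly6c2, Ccr2 and Vcan all overlap between the gates.

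Genes of granule proteins known from neutrophils and their precursors were part of the difference. Mmp8, neutrophil collagenase, was at 90.3 against 20.7 CPM in the vehicle library and 74.9 against 20.6 CPM in the SCDi library, log2 ratios of 2.12 (1.87 to 2.40) and 1.86 (1.64 to 2.09). Lcn2, the siderophore-binding lipocalin, was at 45.5 against 8.93 and 38.2 against 5.48 CPM. Its ratio was 2.34 in the vehicle library, and in the SCDi library it was 2.79 with and 2.11 without 1 SCDi member that held 475 UMIs of Camp, a granule peptide of neutrophils. S100a8, a calcium-binding alarmin subunit, had ratios of 1.99 and 2.51, and the second was 0.70 without that barcode. Prtn3, proteinase 3, was at 21.6 against 3.45 and 19.3 against 3.44 CPM, ratios of 2.62 (2.03 to 3.35) and 2.46 (1.95 to 3.06).

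These transcripts were spread over many members. Mmp8 was found in 56.5% of vehicle and 53.3% of SCDi members and, after thinning, in 30.6% and 27.6%, against 7.77% and 6.90% of F13a1-low monocytes and 3.32% and 1.97% of the T cell gate. Prtn3 was found in 22.7% and 21% of members and, after thinning, in 8.26% and 7.82%, against 1.30% and 0.789% of F13a1-low monocytes. The neutrophil list, with Lcn2, Mmp8 and S100a8 as its highest genes in the vehicle library, had a median ratio of 0.99 in that library (3 of 6 measured genes higher, all 3 past 1.5-fold) and of 2.51 in the SCDi library (7 of 9 higher, 6 past 1.5-fold). Over the alternative settings its median ranged from -0.0011 to 1.15 and from -0.062 to 2.59, and in the SCDi library Camp, Ngp and S100a9 of the member rich in Camp were its highest genes. Other neutrophil genes were level or lower, such as Csf3r, the receptor for granulocyte colony-stimulating factor, at 119 and 101 CPM in members against 120 and 101 CPM. Flt3, a cytokine receptor of progenitors and dendritic cells, was at 16.8 against 7.68 CPM and 17.0 against 4.62 CPM, with thinned shares of 5.22% and 7.56% of members, 2.07% and 0.789% of F13a1-low monocytes and 2.82% and 2.46% of the T cell gate.

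The other genes higher in members of both libraries had varied roles. Stxbp6, which encodes the SNARE-binding protein amisyn, was at 61.9 against 20.8 CPM and 67.4 against 12.3 CPM, ratios of 1.57 and 2.45. Pi16, a peptidase inhibitor, had ratios of 1.51 and 2.09, and Add3, a membrane skeleton adducin, 1.43 and 1.75. Ccdc88c had 1.47 and 1.58, Syngr1 2.42 and 1.47 (-0.060 in the SCDi library on thinned cells), and Ldlrad3 1.37 and 2.16. Idh1, cytosolic isocitrate dehydrogenase and a source of NADPH, had 1.51 and 1.39. Apoc2, the activator of lipoprotein lipase, had 1.32 and 1.40.

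Within the list of 31 classical monocyte genes, 30 reached 20 CPM, and 20 were higher in members in the vehicle library and 21 in the SCDi library. Of these, 9 and 11 were past 1.5-fold higher, and the list medians were 0.12 and 0.28 against 0.03 and -0.02 over all genes. Besides Fn1 and Hp, the higher genes included Mgst1, a microsomal glutathione transferase (262 against 117 CPM and 281 against 74.1 CPM), and Lyz2, lysozyme, with ratios of 0.83 and 0.85. The genes most used to define classical monocytes were at nearly the same level in both gates. Ly6c2 had ratios of -0.21 and -0.36, Ccr2 0.08 and 0.20 and Plac8 -0.40 and -0.12, none of them past 1.5-fold. F13a1-low monocytes had to hold Vcan, itself a classical monocyte gene. How far the gates set these similar levels was not tested.

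Macrophage genes differed between the libraries in this comparison. Of 23 measured genes of the macrophage list, 20 were higher in members than in F13a1-low monocytes in the vehicle library (9 past 1.5-fold, median 0.49). In the SCDi library 11 were higher and 12 lower, with 6 past 1.5-fold higher and 5 lower and a median of -0.02. Over the alternative settings the medians ranged from -0.078 to 0.79 and from -0.33 to 0.21. The difference between the libraries was not tested.

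F13a1 is a coagulation gene, and 12 of 15 measured genes of the list of coagulation, fibrinolysis and matrix were higher in members in the vehicle library (median 0.29) and 9 of 14 in the SCDi library (median 0.27, and -0.040 on thinned gates). Over all genes 3262 of 5772 were higher in members in the vehicle library and 2740 of 5759 in the SCDi library. F5, coagulation factor V, was at 70.1 against 35.7 CPM and 76.2 against 23.1 CPM, ratios of 0.97 and 1.72. Serpinb2, an inhibitor of plasminogen activators, was at 38.6 against 14.3 and 20 against 6.56 CPM, but the highest 1% of members held 48.4% and 63.8% of its UMIs. Thbs1, the matrix protein thrombospondin 1, had ratios of 0.29 (-0.30 on thinned gates) and 0.75. Of the adhesion and trafficking list, Cd44, a hyaluronan receptor, had ratios of 0.59 and 0.79 and Itga4, an integrin subunit, 0.31 and 0.40.

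Interferon genes lay on the other side. All 32 measured genes of the type I interferon list were lower in members than in F13a1-low monocytes of the vehicle library (median -0.51), and 31 of 32 in the SCDi library (median -0.45). Ifi44, an interferon-induced protein, was at 17.1 against 42.8 CPM and 21.2 against 52.3 CPM, ratios of -1.32 (-1.58 to -1.07) and -1.30 (-1.51 to -1.09). Irf7, the transcription factor that amplifies the response, had -0.55 and -0.59. Of the interferon gamma list 21 of 23 genes were lower in each library, with medians of -0.49 and -0.47. Cxcl9, a T cell attracting chemokine, had ratios of -1.32 and -0.81, and Gbp2, a guanylate-binding protein, -0.93 and -0.85.

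Antigen presentation genes followed the same side. Of 9 measured genes of MHC class II presentation, 7 were lower in members in the vehicle library and 9 in the SCDi library, with medians of -0.59 and -1.27. H2-Ab1, a class II chain, was at 1076 against 1672 CPM and 927 against 2401 CPM, ratios of -0.64 and -1.37. Ciita, the class II master regulator, had -0.79 and -1.27. Of 19 class I genes, 19 and 18 were lower, with medians of -0.32 and -0.41. Ly6a, also known as Sca-1 and induced by interferon, had -0.84 and -1.02. The inflammatory cytokine Il1b was lower too, with ratios of -0.51 and -0.59.

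Among the single genes lowest in members of both libraries, Slc4a11 had ratios of -1.48 and -1.32, Sectm1a -1.33 and -1.40, Ccnd2, cyclin D2, -1.38 and -1.13, and Serpina3g -1.30 and -1.17. The 3 lowest genes of all, Lhfpl3, Opcml and Lsamp, are neural. Their ratios of -7.04 and -8.84, -6.95 and -6.49, and -4.68 and -6.58 rested on 2 vehicle and 1 SCDi F13a1-low barcodes that also held 24 and 41 UMIs of Pdgfra, a marker of glial progenitors. Without them the vehicle ratios of Lhfpl3 and Lsamp were 1.64 and 0.19 and the SCDi ratio of Opcml 0.53, so these 3 genes do not describe monocytes.

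The rule cuts a continuous level, and the cells next to it were intermediate. In barcodes with 3 or 4 UMIs of F13a1, just outside the rule (254 and 232 cells), Fn1 stood at 281 and 235 CPM and Hp at 411 and 384 CPM. In members with 5 or 6 UMIs, just inside (141 and 145 cells), Fn1 stood at 424 and 378 CPM and Hp at 476 and 544 CPM. In members with at least 20 UMIs (168 and 172 cells), Fn1 stood at 943 and 817 CPM and Hp at 826 and 785 CPM. Ly6c2 had no such gradient, with 1345, 1475 and 1225 CPM over the same steps in the vehicle library. Barcodes with enough F13a1 but no Chil3, 195 and 131 cells outside the rule, had Fn1 at 413 and 419 CPM and Hp at 349 and 460 CPM.

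Within members, the rank correlation of each gene's per-cell level with F13a1 was computed over 3008 genes, as a description of cells that share a library and its depth. The highest Spearman values were those of Hp (0.33 in vehicle and 0.30 in SCDi members), Fn1 (0.28 and 0.31), Svil, which encodes the actin-binding protein supervillin (0.25 and 0.28), and Lyz2 (0.25 and 0.29). The lowest were those of Calhm6 (-0.35 and -0.33), the costimulatory receptor gene Cd40 (-0.30 and -0.32), Ifi205 and the guanylate-binding protein gene Gbp4 (-0.29 and -0.33). Per cell, the summed classical monocyte list had a Spearman value of -0.54 and -0.55 with the MHC class II list and of -0.53 and -0.57 with the macrophage list, while the macrophage and class II lists had 0.58 and 0.57 with each other. Member barcodes therefore ranged from those rich in classical monocyte transcripts to those rich in class II and macrophage transcripts. These values were not tested for the part that mixed or free RNA or doublets had in them.

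Between treatments, 74 of 5714 genes were past 1.5-fold between SCDi and vehicle members (1.30%), with 28 higher in SCDi (0.490%) and 46 lower (0.805%), and the median log2 ratio over all genes was -0.03, with 2381 of 5714 above 0. The same rule found 304 of 5758 genes in F13a1-low monocytes (5.28%, with 2.45% higher and 2.83% lower) and 149 of 6511 in all other kept immune barcodes (2.29%, with 0.399% higher and 1.89% lower). The F13a1-low group held fewer UMIs (6383430 and 9298980 summed, against 14194200 and 14900300 in members), so the counts are not at equal depth. With the gates applied to thinned cells the counts were 167 genes in members and 160 in F13a1-low monocytes, so the smaller count in members did not hold there. The label genes that the rule did not use were not past the fold. Fn1 had a log2 ratio of -0.02 (-0.06 to 0.03), Hp 0.05 (0.01 to 0.09) and Cd177 0.12 (-0.01 to 0.24). F13a1 had -0.02, but the rule set a minimum for it, so this value only describes the members. Of the 74 genes, 11 had at least 50% of their UMIs in the highest 1% of cells in the group where they were high.

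**Figure D4:**
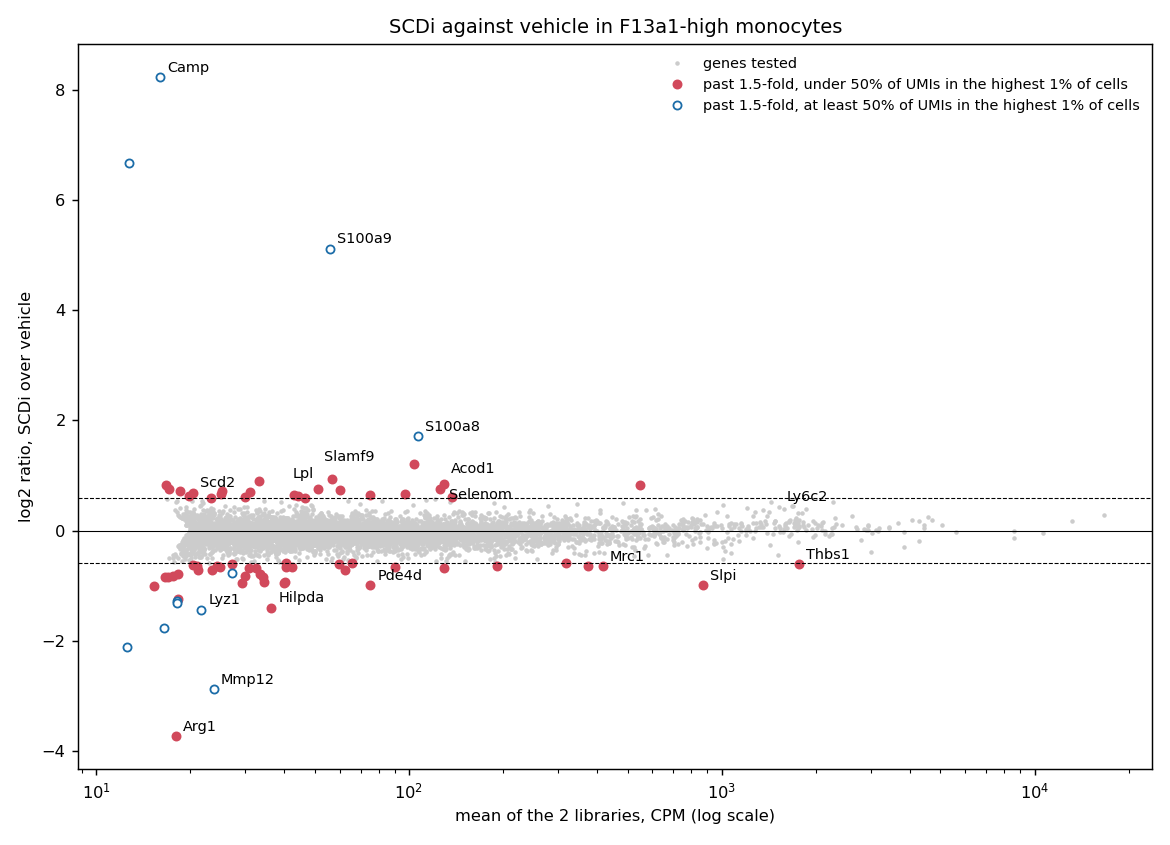
Log2 ratio of SCDi over vehicle in F13a1-high members (y axis) against the mean level of both libraries (CPM, log x axis), 1 point per gene, with dashed lines at 1.5-fold. Filled red points are genes past the fold, and open blue points are the 11 of them with at least 50% of their UMIs in the highest 1% of cells, among them Camp, S100a9, Mmp12 and Lyz1, while Arg1 and Slpi are filled.

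Arg1, arginase 1, which depletes arginine and is widely used as a marker of suppressive myeloid cells, had the lowest ratio. It was at 33.5 CPM in vehicle members (475 UMIs in 73 of 697 cells) and 2.48 CPM in SCDi members (37 UMIs in 24 of 758 cells), a log2 ratio of -3.73 (-4.28 to -3.27). Shares of members with a UMI were 10.5% and 3.17%, and 5.22% and 0.796% after thinning. The T cell gate had thinned shares of 2.82% and 0.493% and levels of 14.3 and 1.19 CPM, so Arg1 was lower in SCDi there as well, by a ratio of -3.55. In all other kept immune barcodes the ratio was -2.03 and in F13a1-low monocytes -0.48, from 45 and 47 UMIs. The part of free or mixed RNA in the Arg1 of members was not tested. The highest 1% of cells held 49.7% of vehicle UMIs of Arg1, and the ratio without those cells was -3.84.

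Slpi, a secreted inhibitor of neutrophil serine proteases, was the most abundant of the lower genes. It was at 1160 CPM in vehicle and 584 CPM in SCDi members, a log2 ratio of -0.99 (-1.03 to -0.95). After thinning it was found in 65.8% of vehicle and 56.8% of SCDi members, against 13.8% and 8.87% of the T cell gate. The ratio was -1.75 in F13a1-low monocytes, -1.10 in all other kept immune barcodes and -1.09 in the T cell gate, so the lower level was not a property of members alone.

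Mmp12, macrophage elastase, was at 41.9 and 5.64 CPM (log2 ratio -2.89), but 1 vehicle cell held 351 of its 595 UMIs. Hilpda, a hypoxia-induced protein that slows lipid droplet breakdown, was at 52.6 and 19.9 CPM, a ratio of -1.40 (-1.60 to -1.21), against -0.86 in F13a1-low monocytes and -1.01 in all other kept immune barcodes. Pdcd1lg2, the gene of PD-L2, a ligand of the T cell inhibitory receptor PD-1, was at 25.6 and 10.9 CPM, a ratio of -1.24 (-1.51 to -0.97). Pde4d, a cyclic AMP phosphodiesterase, was at 100 and 50.3 CPM, and Satb1, a chromatin organiser, at 20.4 and 10.1 CPM. The T cell gate held Hilpda at 52.4 and 30.4 CPM and Pdcd1lg2 at 41.4 and 29.9 CPM, against 52.6 and 19.9 CPM and 25.6 and 10.9 CPM in members. It held Pde4d at 139 and 113 CPM and Satb1 at 379 and 311 CPM, and the highest 1% of members held 48.3% and 53.0% of the UMIs of Satb1. How much of these T cell gate levels came from the T cells themselves was not tested, so they are not a measure of background alone.

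The remaining lower genes of the named set rested on few cells. Ccr7, the lymph node homing receptor, was found in 29 vehicle and 20 SCDi members, with 77.6% and 89.2% of its UMIs in the highest 1% of cells. Its ratio of -1.77, and that of -2.11 of Tbc1d4, a regulator of glucose transporter traffic, turned to 1.26 and 0.76 once the highest doublet scores were removed. The heat shock genes Hspa1a and Hspa1b, with ratios of -1.31 and -1.28, had 59.0% and 77.5% of their vehicle UMIs in the highest 1% of cells. Heat shock transcripts also appear on tissue dissociation. Of the list of immediate early and dissociation genes, 23 of 25 were lower in SCDi members, with a median of -0.18. Over all genes the median was -0.03, with 2381 of 5714 above 0. The part of dissociation in these differences was not tested.

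Of the higher genes, Camp (log2 ratio 8.24), Ngp (6.68), S100a9 (5.12) and S100a8 (1.71) came from 1 SCDi member. That barcode held 475 UMIs of Camp, 370 of Ngp, 1563 of S100a9 and 1749 of S100a8 with 6 of F13a1, in a total of 46329. Without it the ratios were -1.65, 0.83, 0.28 and -0.09. Their treatment ratios therefore rest on 1 barcode, although S100a8 itself was found in 188 vehicle and 175 SCDi members.

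The other higher genes were spread more widely. Slamf9, a receptor of the signalling lymphocyte activation family, was at 38.7 and 74.4 CPM, a log2 ratio of 0.94 (0.80 to 1.09), and had 0.96 in all other kept immune barcodes. Acod1, the enzyme that makes itaconate, was at 92.8 and 166 CPM, a ratio of 0.84 (0.74 to 0.94). In F13a1-low monocytes Acod1 had -0.01, in all other kept immune barcodes 0.19 and in the T cell gate 0.05, differences that were not tested. Selenom, a selenoprotein of the endoplasmic reticulum, was at 93.1 and 158 CPM (0.76). Lpl, lipoprotein lipase, was at 38.2 and 64.4 CPM (0.75), and Gpr84, a receptor for medium-chain fatty acids, at 13.9 and 23.1 CPM (0.73). Abcb1a, an efflux pump, had 0.82 and Tnfsf10, the death ligand TRAIL, 0.76.

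The desaturases are the genes of the inhibited enzymes. Scd1 had 8 UMIs over all vehicle members and 7 over all SCDi members. Scd2 was at 15.6 CPM in vehicle (222 UMIs in 116 cells) and 25.2 CPM in SCDi members (376 UMIs in 209 cells), a log2 ratio of 0.69 (0.45 to 0.94). It was also higher in F13a1-low monocytes (0.95), all other kept immune barcodes (0.58) and the T cell gate (0.69). Scd2 has its own place on chromosome 19 from 44293674 to 44306864.

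Lipid genes differed in both directions. All 9 measured genes of the 25-gene cholesterol synthesis list were higher in SCDi members, with a median of 0.24 against -0.03 over all genes, and with 1 past 1.5-fold, Fdps, farnesyl diphosphate synthase (23.7 and 36.0 CPM, 0.61). In F13a1-low monocytes the list median was 0.36 and in all other kept immune barcodes 0.05. Insig1, a sterol-regulated gene, had 0.35. The fatty acid synthesis list had 4 higher and 5 lower genes (median -0.01), and the fatty acid oxidation list 2 higher and 10 lower (median -0.07), with Cpt1a, the carnitine transferase of mitochondrial entry, lowest at -0.45. Plin2, a coat protein of lipid droplets, was at 607 and 441 CPM, a ratio of -0.46. Of the list of lipid droplet and uptake genes 8 of 12 were lower (median -0.18), 2 of them past 1.5-fold, with Hilpda the lowest. Over all genes 2381 of 5714 were above 0 in this comparison, so most genes were lower in SCDi members as well.

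**Figure D5:**
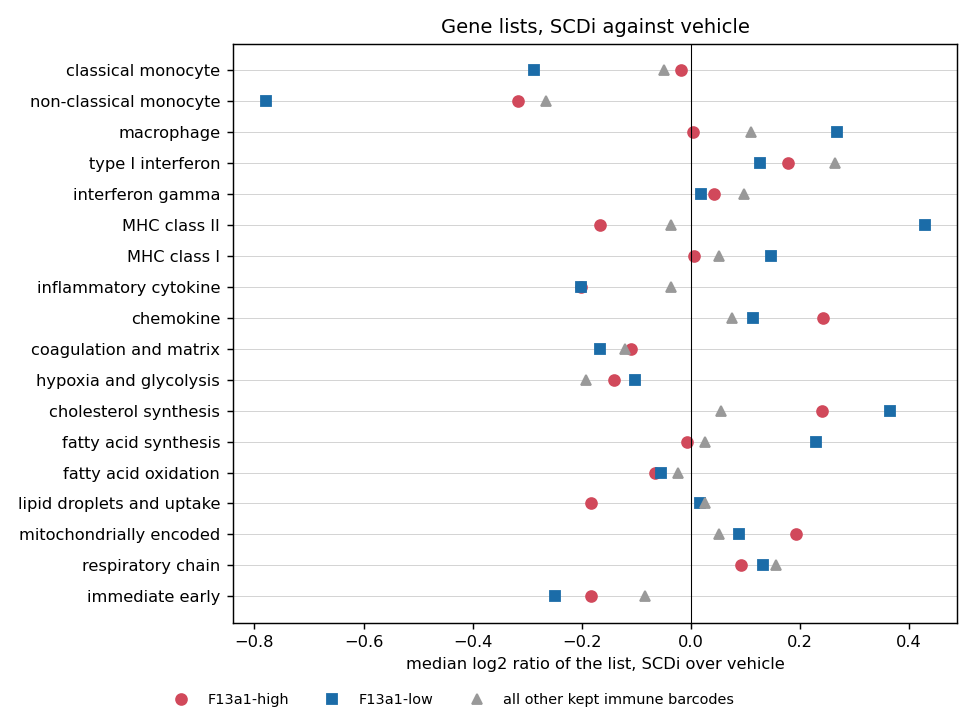
Median log2 ratio of SCDi over vehicle (x axis) for selected gene lists (y axis) over their genes with at least 20 CPM, in F13a1-high members (circles), F13a1-low monocytes (squares) and all other kept immune barcodes (triangles). Member medians lie between -0.32 for nonclassical monocyte genes and 0.24 for the cholesterol synthesis and chemokine lists (the latter from -0.10 to 0.27 over the alternative settings), and MHC class II is at -0.17 in members and 0.43 in F13a1-low monocytes.

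Type I interferon genes were higher in SCDi members for 28 of 32 measured genes, with a median of 0.18, though only 2 were past 1.5-fold. Ifit3b was at 45.2 and 75.4 CPM (log2 ratio 0.74, but -0.55 with the rule applied to thinned cells) and Oas1a, an RNA-sensing synthetase, at 74.9 and 119 CPM (0.67, interval 0.56 to 0.78). Irf7 was at 530 and 696 CPM (0.39) and Cxcl10 at 1555 and 1945 CPM (0.32). The list median was 0.13 in F13a1-low monocytes and 0.26 in all other kept immune barcodes, where 30 of 32 genes were higher. Ly6c2 had 0.43 in members, 0.58 in F13a1-low monocytes and 0.57 in all other kept immune barcodes. The same direction was thus seen in all 3 groups of cells.

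The counts of lower genes that follow stand beside a background in which most genes lay below 0 in members, as given above. Inflammatory cytokine genes were lower in SCDi members for 17 of 19 measured genes (median -0.20), none past 1.5-fold, with Il1b at 1738 and 1281 CPM (-0.44). Of the hypoxia and glycolysis list 18 of 23 genes were lower (median -0.14). Of the coagulation, fibrinolysis and matrix list 14 of 16 were lower (median -0.11). Thbs1 was at 2137 and 1400 CPM, a ratio of -0.61 (-0.64 to -0.58), with -1.07 in F13a1-low monocytes and -0.72 in all other kept immune barcodes. Serpinb2 had -0.95 and F7, coagulation factor VII, was at 21.7 and 12.1 CPM (-0.84), while F5 had 0.12. F13a1 chose the members, so its level is not set beside these genes.

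Class II presentation differed between the gates. In members 6 of 9 genes were lower in SCDi with a median of -0.17, and H2-Ab1 had -0.22 (-0.25 to -0.18). In F13a1-low monocytes 9 of 9 were higher with a median of 0.43, and H2-Ab1 had 0.52. The macrophage list was higher there too, in 18 of 22 genes (10 past 1.5-fold, median 0.27), and so was the complement list in 9 of 11 (median 0.22), with C1qc, C1qb and C1qa highest. The part of these macrophage transcripts in the class II values was not tested. The difference between the gates was not tested. The macrophage list had 12 higher and 11 lower genes in members (median 0.00), with Mrc1, the mannose receptor, at 509 and 325 CPM (-0.65) and Spp1, osteopontin, at 1412 and 1935 CPM (0.45). Nos2, inducible nitric oxide synthase, was at 33.4 and 52.2 CPM (0.64), with 41.4% and 44.0% of its UMIs in the highest 1% of cells.

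Nonclassical monocyte genes were lower in SCDi members for 8 of 10 measured genes (median -0.32), and the list median was -0.78 in F13a1-low monocytes. A UMI of Ace or Treml4, markers of nonclassical, patrolling monocytes, was found in 23.7% of vehicle and 15.6% of SCDi members, and after thinning in 11.4% and 6.63%. The thinned shares of F13a1-low monocytes were 14.5% and 7.89%. Ace stood at 17.1 and 8.46 CPM in members and at 2.36 and 1.71 CPM in the T cell gate. All 12 measured mitochondrially encoded genes were higher in SCDi members (median 0.19), beside the mitochondrial shares of 2.02% and 2.30% given above, and the part of cell quality in this difference was not tested.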

How the data were processed

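Single-cell 3' RNA libraries were made from 4 pools (vehicle or SCDi, immune or tumour). The deposited matrices hold raw UMI counts, made by the authors with Cell Ranger 7.1.0 on mm10, per the submitters' processing notes. No header or label states the annotation or whether introns were counted. GENCODE M21 gave the gene positions. Counts were summed over the cells of each gate and library and scaled to CPM. Log2 ratios had 0.5 counts added, with exact conditional binomial 95% intervals. Shares have Clopper-Pearson intervals, and their differences Newcombe intervals. A count of 0 is given the upper limit of 3 counts. Thinning drew 5000 UMIs per cell. Doublets stayed in, and their removal at 0.8% per 1000 barcodes was an alternative. Python 3.11.15 with scipy 1.17.1 was used, and the count functions were tested on simulated data. The members and the 38 gene lists were chosen with earlier results of these data known.

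The text could name the 12 highest and 12 lowest genes of the treatment comparison and of the gate comparison, the gate and label genes, all classical monocyte, trafficking and desaturase genes, the 2 highest and 2 lowest members of each other list, and 8 and 4 genes by correlation with F13a1. Mitochondrial, ribosomal and predicted genes and receptor segments were left out of the first. Apoe, C1qa, Mpo, Elane, Ly6g, Csf3r, Ace and Treml4 were named as cell type markers, and Mki67 and Top2a as markers of dividing cells. Fdps, the gene behind a count of 1, and Pdgfra were chosen after their values were seen.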

Additional observations from a re-analysis of the deposited data

Results flagged for a closer look

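Lyz1, a lysozyme gene, differed in opposite directions between the monocyte gates. In F13a1-high members it was lower in the SCDi library, at 31.6 and 11.7 CPM (log2 ratio -1.44), and in F13a1-low monocytes higher, at 3.60 and 38.8 CPM (3.40). The difference between the gates was not tested. The highest 1% of cells held 80.8% of the vehicle members' UMIs and 93.6% of those of SCDi F13a1-low monocytes, and without these cells the ratio in members was -0.12. Lyz1 and Lyz2 are close copies, and the treatment of reads that match both was not checked.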

How the results depend on the processing

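No paired analysis was possible because each treatment had 1 library and the labels give no replicate numbers. The alternatives that remove members with at least 10 UMIs of Camp, Ngp and Ly6g, F13a1-low barcodes with at least 10 UMIs of Lhfpl3, Opcml and Lsamp, or the highest 1% of cells per gene were chosen after seeing the data. The shares of members depended on the rule and on depth. They were 13.7% and 15.3% (vehicle, SCDi) at 3 or more F13a1 UMIs, 5.86% and 6.49% at 10 or more (difference 0.63 points), 12.8% and 13.8% with no rule on Chil3, and 9.04% and 10.8% at 3 or more Chil3 UMIs. They were 3.41% and 3.96% after thinning to 5000 UMIs (0.543 points), and 13% and 15.5% among cells with 10000 to 30000 UMIs. The counts of genes past 1.5-fold are given in the order SCDi against vehicle in members, members against F13a1-low monocytes in the vehicle and then the SCDi library, and SCDi against vehicle in F13a1-low monocytes. They were 6067, 6417, 7613 and 6859 with no expression minimum and 31, 158, 250 and 132 at 50 CPM. Thinned gates gave 167 for the first, 572 for the second and 160 for the last. Cells with 10000 to 30000 UMIs gave 729 for the third, and members with at most 1 UMI of Ly6g, Retnlg, Cxcr2 and Mmp8 gave 122 for the first. The other 79 values of these shares and counts stayed within their limits.

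The log2 ratios that changed sign belonged to genes held by few cells or UMIs. For SCDi against vehicle in members, Camp was -1.58 at 10 or more F13a1 UMIs, -0.091 thinned, -1.68 at 10000 to 30000 UMIs, -1.73 with at most 1 neutrophil UMI, -1.65 without the 1 member rich in Camp and -0.070 without the highest 1% of cells. S100a8 was -0.0017, -1.05, -0.021, -0.094 and -0.77 in the same order, without a change for the neutrophil limit. Ngp was -0.070 without the highest 1%, and S100a9 -0.49 thinned. Hspa1b was 0.59 at 10 or more F13a1 UMIs, 1.82 thinned and 0.23 with at most 1 neutrophil UMI. Thinned, Hspa1a was 0.17, Lyz1 0.52 and Ifit3b -0.55. With the highest doublet scores removed, Tbc1d4 was 0.76 and Ccr7 1.26. For members against F13a1-low monocytes, the vehicle ratio of Lhfpl3 was 0.65 thinned and 1.64 without the barcodes rich in neural genes, and that of Lsamp 0.74, 0.19 and, without the highest 1%, 0.43. The SCDi ratio of Opcml was 0.18 at 10000 to 30000 UMIs, 0.43 with a Ly6c2 UMI required, 0.066 without dividing cells and 0.53 without the neural barcodes, and that of Syngr1 was -0.060 thinned. The median of the neutrophil list turned to -0.062 (SCDi, 10000 to 30000 UMIs) and, with at most 1 neutrophil UMI, to -0.0011 (vehicle) and -0.013 (SCDi). The cause of each change was not tested. Ratios of genes under about 20 CPM rest on few UMIs per cell, and with 1 pool per treatment no value here has an error over animals.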
